A study of Mus musculus with 37 samples.

Results

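Hearts of mouse embryos with 1 null allele of Nipbl were compared with hearts of embryos not labelled as carrying it. The comparison took in all 37 bulk RNA-seq libraries of the study. Libraries were assigned to the groups by their titles alone: 18 libraries whose title names Nipbl +/- against the 19 others. Hearts were taken at stage E10.5. The fathers were Stra8-iCre; Nipbl Flox/+ males, in which Cre is driven by a promoter active in male germ cells. By the study's design text, their sperm carried either the Flox allele, which works as wild-type, or the null FIN allele. The mothers were Isl1 Cre/+, with the Cre gene in 1 of their Isl1 alleles, which leaves a single working copy of Isl1. The Nipbl +/+ hearts are of 2 genotypes, called here wild-type (Nipbl +/+; Isl1 +/+, n = 10) and Isl1_het (Nipbl +/+; Isl1 +/-, n = 9). The Nipbl +/- hearts are called Nipbl_het (Nipbl +/-; Isl1 +/+, n = 9) and double_het (Nipbl +/-; Isl1 +/-, n = 9). Isl1_het and double_het embryos carry the Cre allele. Whether Isl1_het embryos received a Flox allele, and whether this Cre then changed it in their hearts, was not tested. The labels do not say whether a library holds the heart of 1 embryo, and p-values measure only the spread between these libraries.

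Nipbl encodes the protein that, with its partner Mau2, loads cohesin onto chromosomes. Cohesin is a ring complex that holds sister chromatids together and extrudes loops of chromatin, which bring enhancers and promoters together. Loss of 1 copy of NIPBL is the most frequent known cause of Cornelia de Lange syndrome, in which heart malformations are common. At the stage studied the heart is a looped tube of atrial and ventricular muscle lined by endocardium, and cells of the epicardium are spreading over its surface.

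The total count per library was 28.0 to 46.1 mega-counts (M) in Nipbl +/- hearts and 23.4 to 51.0 M in Nipbl +/+ hearts, with a median of 36.2 M over all libraries, so that 1 CPM (count per mega-count of the library) is 36.2 reads in the median library. Heart muscle transcripts were present in every library (Tnnt2, cardiac troponin T, at 2381 to 5619 CPM). Blood cell transcripts varied widely within both groups: the 9 tested erythroid genes summed to 517 to 54231 CPM (median 9107) in Nipbl +/- and 833 to 106626 CPM (median 13395) in Nipbl +/+ hearts. In the test described next 0 of the 9 passed and 0 had a positive change, with a median log2 change of −0.34 over all hearts, −0.58 in Isl1 +/+ and 0.01 in Isl1 +/- hearts. The 5 tested liver genes summed to at most 20.0 CPM in Nipbl +/+ hearts and reached 352 CPM in a single Nipbl +/- library. Each library carries a set number in its label, whose meaning the labels do not spell out, and 5861 genes differed between sets. Sets 2, 5 and 6 held all 4 genotypes, set 1 held 6 Nipbl +/+ libraries and set 7 held 1 double_het library. With a term for each set, the difference between the Nipbl genotypes therefore rests on 17 Nipbl +/- and 13 Nipbl +/+ libraries, while levels below are given over all 18 and 19. The library labelled Nipbl_het replicate 2 stood apart. Its Nipbl level went against its label, and its summed CPM of 24 stress response genes was 18983 against at most 4907 in the other Nipbl +/- and 4468 in the Nipbl +/+ libraries. The main results are therefore also given without it.

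Nipbl itself was lower in Nipbl +/- hearts. In the 19 Nipbl +/+ libraries it stood at 47.6 CPM in the lowest, 58.5 in the median and 78.8 in the highest. In the 18 Nipbl +/- libraries the corresponding values were 27.1, 37.4 and 72.4 CPM. The highest value was that of the library labelled Nipbl_het replicate 2, and 16 of the 18 libraries lay below every Nipbl +/+ library. In the edgeR quasi-likelihood test the log2 change was −0.79 (SE 0.09), with an adjusted p of 3.27e-07, and −0.86 without that library. The difference of mean log2 CPM was −0.98, −0.63 and −0.94 within sets 2, 5 and 6. Among the 16 tested genes of cohesin and its regulators, 1 other gene passed the threshold: Stag1, a subunit of the ring, was higher by a log2 change of 0.25 (adjusted p 0.0265). Stag1 was at 128 CPM in the library labelled Nipbl_het replicate 2, the highest of all, and its change was 0.21 without it. Stag1 did not pass with a replicate block, with sets 2, 5 and 6 alone, without set 5 or without set 6. The loading partner Mau2 (log2 change 0.06), the ring subunits Smc1a (−0.10), Smc3 (0.04) and Rad21 (−0.01), the release factor Wapl (−0.07) and the boundary factor Ctcf (−0.03) did not pass the test.

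Of 15046 genes tested, 640 (4.25%) had an adjusted p-value under 0.05 by edgeR's quasi-likelihood test with Benjamini-Hochberg adjustment. Of these, 427 were higher (2.84% of the genes tested) and 213 lower (1.42%) in Nipbl +/- hearts. The changes were mostly small: the median absolute log2 change of the 640 genes was 0.44, 374 changed by less than 0.5 and 66 by 1 or more. The median log2 CPM was 2.30 for genes that rose, 4.04 for those that fell and 4.46 for all genes tested. Over all genes tested the median log2 change was 0.0052. Without the library labelled Nipbl_het replicate 2, 1057 of 15072 genes passed (7.01%), 650 higher (4.31%) and 407 lower (2.70%), and all 640 genes were among them. The count also rested on the sets: it was 160 without set 2 and 381 without set 6. Of 102 called genes that were named by rule or belong to the planned gene lists, 84 passed with no set term and 48 without set 2. Genes that belong only to the families added after the data were seen are not in this count. Those that passed with the set term but not without it were Acta1, Bst2, Col1a1, Col1a2, Col11a2, Col13a1, Col23a1, Flrt3, Hmgcs1, Krt18, Lum, Pcdhb5, Slit2, Slitrk4, Sqle, Tubb3, Wnt5a and Wnt9b, each with the same direction. The same fit gave 34 genes for Isl1 genotype.

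The genes that rose with the smallest p-values had varied roles. Trim72, which encodes the membrane repair protein MG53 of striated muscle, stood at 11.2, 15.7 and 20.0 CPM in the lowest, median and highest Nipbl +/+ library and at 21.2, 24.4 and 34.2 CPM in the Nipbl +/- libraries. The groups did not overlap, and the log2 change was 0.64 (SE 0.07, adjusted p 2.02e-07). Such a separation was rare: 3 genes of 15046 (0.0199%) had no overlap of CPM between the 18 and the 19 libraries. The others were Klf14, described below, and 5730507C01Rik, which was higher and is named after its values were seen. Barx2, a homeobox factor, was at 0.672, 1.51 and 3.17 CPM in Nipbl +/+ and at 2.67, 4.13 and 7.69 CPM in Nipbl +/- hearts. All but 3 of the Nipbl +/- libraries lay above every Nipbl +/+ library, with a log2 change of 1.57 (SE 0.17). Rarres1, known as a retinoic acid responsive gene, rose by a log2 change of 1.16 (SE 0.13), from a median of 1.50 to 3.80 CPM, and 17 of 18 libraries lay above every Nipbl +/+ library. Rarres2 rose by 0.75. These were the 2 genes called among 20 tested genes of retinoic acid metabolism, receptors and targets. That is 10%, against 4.25% of all genes.

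Clic6, a chloride channel family gene, rose from a median of 5.57 to 10.9 CPM (log2 change 0.89, SE 0.10), and Nfe2l3, a CNC-type leucine zipper factor, from 4.03 to 7.18 CPM (0.70, SE 0.10). Crlf2, the receptor for thymic stromal lymphopoietin, rose by 0.48, the chitinase gene Chit1 by 1.07 and Pdpn, podoplanin, by 0.34. Pdpn is a membrane glycoprotein of lymphatic, mesothelial and other cells, and its median was 21.8 CPM in Nipbl +/+ and 28.1 CPM in Nipbl +/- hearts, where 15 of 18 libraries exceeded every Nipbl +/+ library. The replication-dependent histone gene H2bu2 rose by 1.10. H2bu2 was at 2.37, 2.88 and 4.27 CPM in Nipbl +/+ and at 3.87, 5.01 and 15.3 CPM in Nipbl +/- hearts, the last value in the library labelled Nipbl_het replicate 2. Histone genes share near-identical copies, so its reads may be split between them. The largest rises among the genes named by rule also included Oit3 (log2 change 1.30), Myh11, the myosin heavy chain of smooth muscle (1.19), and Grin2c, an NMDA receptor subunit (1.35). Grin2c was at 15.6 CPM in the library labelled Nipbl_het replicate 2 against a Nipbl +/- median of 1.97 CPM, and its change was 1.09 without that library. Lgals3, galectin 3, rose by 1.56 with all libraries. Its Nipbl +/- values ran from 0.775 over 2.06 to 33.0 CPM, the last again in the library labelled Nipbl_het replicate 2, and the change was 1.05 without that library.

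Among the genes that fell, Slitrk5 had the smallest p-value of all genes. It encodes a transmembrane protein with leucine-rich repeats that is known from neurons. Slitrk5 was at 21.2, 29.2 and 38.5 CPM in the lowest, median and highest Nipbl +/+ library and at 9.59, 16.3 and 24.3 CPM in Nipbl +/- hearts, with 17 of 18 libraries below every Nipbl +/+ library (log2 change −0.98, SE 0.09, adjusted p 1.54e-08). Klf14, a Krüppel-like zinc-finger factor, was at 2.00, 2.93 and 4.00 CPM in Nipbl +/+ and at 0.492, 1.32 and 1.88 CPM in Nipbl +/- hearts. Its groups did not overlap either, and the log2 change was −1.24 (SE 0.15). The lowest Klf14 and Slitrk5 values belonged to the library labelled Nipbl_het replicate 2, on the side of its label, as did its Trim72 value of 21.6 CPM. Lrrc4b, a synaptic adhesion gene of the netrin-G ligand family, fell by 0.48 on the log2 scale, from a median of 37.7 to 29.3 CPM. Sobp fell by 0.80, and the SoxB1 factor gene Sox3 fell by 0.84, from a median of 9.49 to 5.65 CPM.

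A receptor, a pseudokinase and a channel subunit were also among the genes that fell. Lpar3, a receptor for lysophosphatidic acid, was at 40.3, 50.9 and 59.4 CPM in Nipbl +/+ and at 28.2, 40.3 and 43.1 CPM in Nipbl +/- hearts (log2 change −0.39, SE 0.05). Trib2, a Tribbles pseudokinase, was at 59.3, 71.0 and 90.1 CPM against 18.6, 46.4 and 59.6 CPM (−0.67, SE 0.09), and 17 of 18 libraries lay below every Nipbl +/+ library. Cacng6, a calcium channel gamma subunit, fell by 0.82 and the kinase gene Stk32b by 0.91. Klhdc10 fell by 0.38, with the library labelled Nipbl_het replicate 2 at 140 CPM against a highest Nipbl +/+ value of 146 CPM. Tnni2, the troponin I of fast skeletal muscle, fell by 0.91, from a median of 43.3 to 22.7 CPM. Lum, the matrix proteoglycan lumican, fell by 1.03 with a wide overlap (0.594 to 6.66 CPM in Nipbl +/+, 0.218 to 5.10 CPM in Nipbl +/- hearts).

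**Figure D1:**
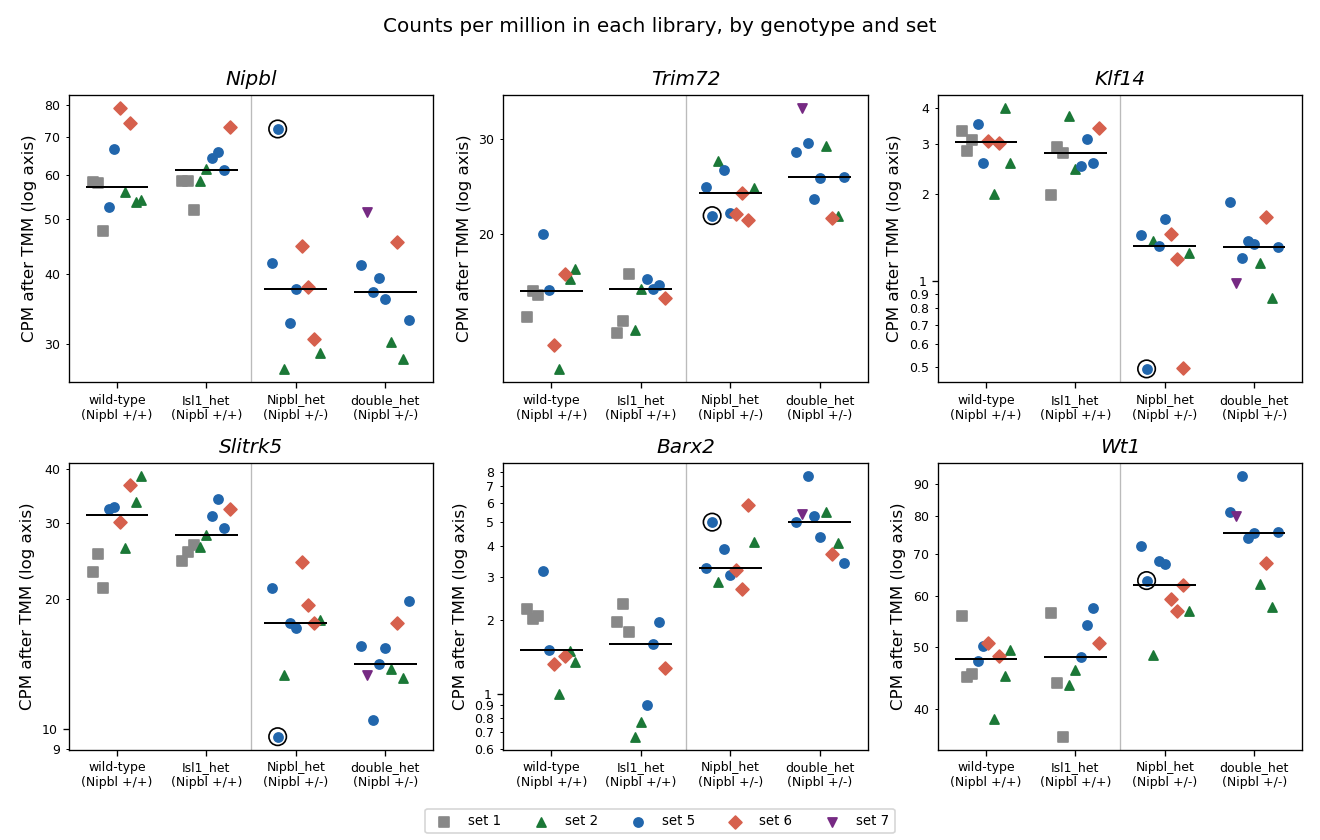
CPM after TMM scaling on a log axis for 6 genes in each of the 37 libraries, by genotype; colour and shape mark the set, black lines are genotype medians, and the circle marks the library labelled Nipbl_het replicate 2. Trim72 and Klf14 separate Nipbl +/- from Nipbl +/+ libraries completely, while Nipbl does so except for the circled library and a double_het library of set 7.

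By tissue, genes of the epicardium and mesothelium gave the most calls among the heart cell types listed. The smaller ventricular list had the higher share called, 37.5% against 33.3%, where 4.25% of all genes were called. Of the 12 epicardial and mesothelial genes, all tested, 4 rose and 0 fell. In this list 11 had a positive log2 change, with a median of 0.31 against 0.0052 for all genes. Wt1, the Wilms tumour factor that marks the epicardium, was at 36.1, 48.1 and 57.5 CPM in Nipbl +/+ and at 48.5, 67.5 and 92.6 CPM in Nipbl +/- hearts (log2 change 0.42, SE 0.06, adjusted p 2.28e-05), with 15 of 18 libraries above every Nipbl +/+ library. The uroplakin genes Upk1b (0.37) and Upk3b (0.32) and the keratin gene Krt18 (0.50) also rose. The epicardial factors Tbx18 (0.22, adjusted p 0.0623) and Tcf21 (0.20, adjusted p 0.446), with the mesothelial keratin Krt8 (0.34, adjusted p 0.0720), did not pass. Aldh1a2, which makes retinoic acid, was at −0.02. The summed level of the 12 genes was 646 to 897 CPM (median 710) in Nipbl +/+ and 732 to 1462 CPM (median 950) in Nipbl +/- hearts. In whole hearts, more cells of a type and more RNA per cell cannot be told apart. Without set 2, a single member passed.

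Keratins, a family added after the data were seen, rose with 5 of 14 tested members (51 in the table): Krt23 (log2 change 1.76), Krt14 (1.53), Krt17 (1.27), Krt7 (0.54) and Krt18. This is 35.7% of those tested, against 2.84% of all genes. A gene at a low level can pass the filter on low counts through the Nipbl +/- libraries alone, so these numbers describe only the members that passed it. Krt14, a keratin of basal epithelial cells, rose from a median of 0.567 to 1.76 CPM, and 15 of 18 libraries lay above every Nipbl +/+ library. Krt7, of simple epithelia, was at 16.1, 40.1 and 53.8 CPM against 35.6, 60.2 and 108 CPM. The foregut endoderm list, the other epithelial source listed, had 2 of 10 members past the filter on low counts and 0 called, with Foxa2 at a median of 0.0984 CPM. Its part in the keratin values was not tested.

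Chamber genes changed in both directions. Of 8 ventricular genes, 2 fell and 1 rose (37.5%, against 4.25% of all genes). Irx4, a homeobox factor of the ventricle, fell from a median of 85.1 to 67.4 CPM (log2 change −0.37, SE 0.09), and Mycn, a Myc family factor of growing ventricular muscle, from 68.5 to 58.8 CPM (−0.36, SE 0.06). Irx4 did not pass with a replicate block or without any of sets 2, 5 and 6. Kcne1, a potassium channel subunit, rose by 0.36. The contractile genes Myl2 (−0.20), Myl3 (−0.03) and Myh7 (−0.09) did not pass. Of 9 atrial genes, 2 rose and 0 fell (22.2%, against 4.25% of all genes), and 8 had a positive change (median 0.21). Kcnj3, which encodes an acetylcholine-activated potassium channel of the atrium, rose from a median of 16.9 to 23.4 CPM (0.35, SE 0.08). Sln, sarcolipin, an inhibitor of the sarcoplasmic calcium pump, rose by 1.38 (SE 0.32) at a low level, 0 to 2.29 CPM in Nipbl +/+ and 0.109 to 4.45 CPM in Nipbl +/- hearts. The summed level of the atrial list had medians of 12342 CPM in Nipbl +/+ and 12368 CPM in Nipbl +/- hearts. Without Nipbl_het replicate 2, 4 atrial genes rose, and without set 6 none passed.

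Isl1, the second heart field factor that is also a target of the cross, rose by 0.66 on the log2 scale in the fit with Isl1 genotype (SE 0.15), at an adjusted p of 0.00582. Isl1 was at 4.38, 6.46 and 13.0 CPM in Nipbl +/+ and at 4.80, 10.9 and 17.5 CPM in Nipbl +/- hearts. It was among 2 of 14 second heart field genes that rose (14.3%, against 4.25% of all genes), with 0 that fell. Without set 2 neither passed. Isl1 did not pass without set 6 either. The 11 tested Hox genes, of 39 in the table, all had a positive change, and Hoxa3 (1.14) was among those that passed. Genes this low can pass the filter on low counts through the Nipbl +/- libraries alone, so this tally describes only the members that passed it. Hoxa3 was at 0.0976, 0.698 and 1.93 CPM in Nipbl +/+ and 0.724, 1.28 and 4.55 CPM in Nipbl +/- hearts. The summed level of Hox genes was 7.13 to 29.6 CPM and 11.4 to 58.9 CPM. Hoxa3 did not pass without set 2 or without set 5.

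Each other cell type gave at most 2 calls. The 12 core cardiac transcription factors gave 0, with log2 changes of 0.00 for Nkx2-5, 0.08 for Gata4, 0.07 for Tbx5 and −0.04 for Mef2c. The trabecular list (10 genes), sinoatrial node list (10) and cushion mesenchyme list (12) also gave 0. Without the library labelled Nipbl_het replicate 2, 2 trabecular genes fell and 1 sinoatrial node gene rose. Of 15 endocardial and endothelial genes, Sox17 rose (0.40, adjusted p 0.0419), and of 10 macrophage genes Tyrobp, an adaptor of myeloid receptors, rose (1.03, median 0.542 to 1.01 CPM). These single calls were 6.67% and 10% of their lists, against 4.25% of all genes. The call of Sox17 ended with DESeq2 size factors, with no filter on low counts, with globins as covariate, with a replicate block, with sets 2, 5 and 6 alone and without any of those 3 sets. Tyrobp did not pass either when any of the 3 sets was left out. Of 9 neuronal genes the tubulin gene Tubb3 (0.49) and the neurofilament gene Nefl (0.25) rose, 22.2% of those tested against 4.25% of all genes. Neither passed without set 2 or without set 6, and Tubb3 did not pass with a replicate block or with sets 2, 5 and 6 alone. The median change of the 9 was −0.04, 4 were positive, and 1 other member fell without the library labelled Nipbl_het replicate 2. The summed level of the neuronal list was 61.8 to 111 CPM in Nipbl +/+ and 65.9 to 101 CPM in Nipbl +/- hearts. Among 5 tested genes of neural progenitors, Pax6 rose (0.83) and Sox3 fell (40% of those tested), and Pax6 did not pass without set 2 or with a replicate block. In the sarcomere list of 19 genes, Acta1, skeletal actin, rose (0.43) and no other gene passed, so 5.26% were called.

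Isoforms typical of skeletal muscle, a list added after the data were seen, gave 8 genes higher and 2 lower of 23 tested. The share called was 43.5%, against 4.25% of all genes tested. Atp2a1, the calcium pump of fast muscle, rose from a median of 16.7 to 31.5 CPM (log2 change 0.84, SE 0.17), Actn3, the actinin of fast fibres, rose by 0.47, Acta1 by 0.43 and the myosin-binding gene Mybph by 0.65. Myot (1.19), Myh3 (1.13) and Fbp2 (1.80) rose at medians under 0.5 CPM in both groups. Genes this low can pass the filter on low counts through the Nipbl +/- libraries alone. The tally and share of this list therefore describe only the members that passed it. Tnni2 fell, as did Myoz1 (−0.33). Of 7 skeletal muscle progenitor genes, 1 passed the filter on low counts, and it was not called.

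**Figure D2:**
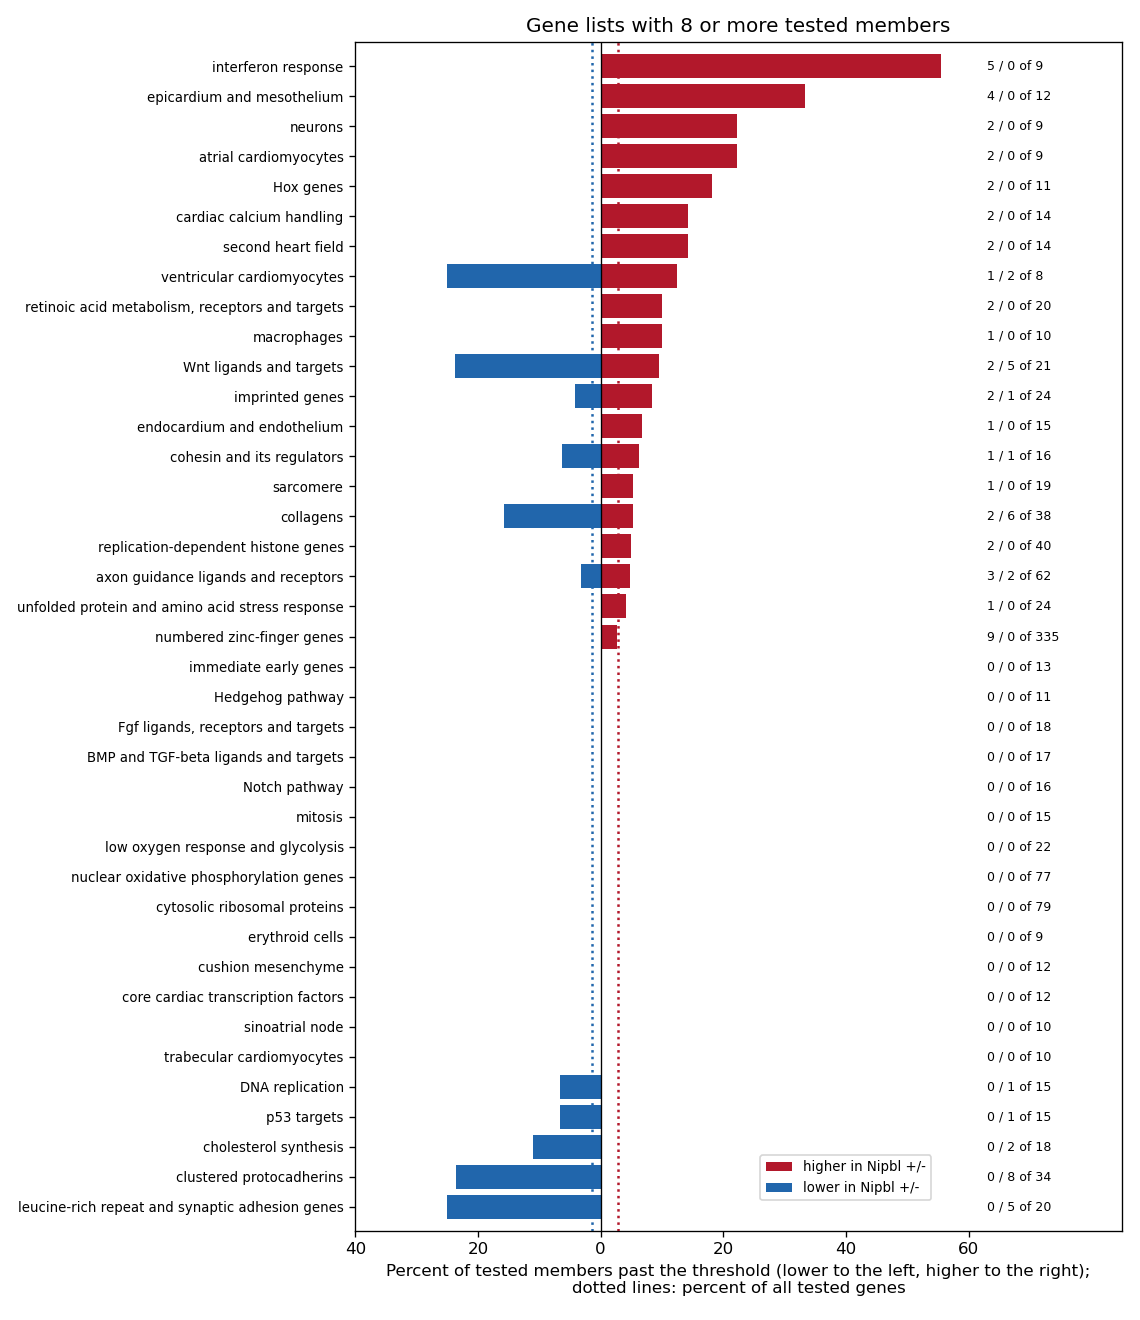
Share of the tested members of each gene list that rose (right) or fell (left) in Nipbl +/- hearts, for lists with 8 or more tested members, leaving out the families added after the data were seen; counts at the right give higher / lower of tested, and dotted lines mark the share over all genes. Among the lists plotted, interferon response and epicardium hold the highest shares that rose, and synaptic adhesion, ventricular, Wnt and clustered protocadherin genes the highest shares that fell. Interferon genes of few reads can pass the filter on low counts through the Nipbl +/- libraries alone, so that share describes only the members that passed. With no filter 2 interferon genes rose, and 0 rose without set 2 or without set 5. Low protocadherin genes can likewise pass the filter through a single genotype.

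Among adhesion molecules of the leucine-rich repeat and synaptic families, 5 of 20 tested members (31 in the table) fell and 0 rose: Slitrk5, Slitrk4 (log2 change −0.43), Lrrc4b, Lrrtm4 (−1.23) and Flrt3 (−0.23). Lrrtm4, a synapse organiser, was at 1.13, 1.57 and 2.37 CPM in Nipbl +/+ and at 0.250, 0.691 and 1.26 CPM in Nipbl +/- hearts, with 17 of 18 libraries below every Nipbl +/+ library (adjusted p 6.31e-06). The share called was 25% against 4.25% of all genes, and the median change of the 20 genes was 0.00. Of 62 axon guidance genes, 2 fell and 3 rose, 8.06% of those tested against 4.25% of all genes. Dcc, a netrin receptor, fell by 1.29 on the log2 scale from a median of 0.539 CPM, and Slit2 by 0.44. The ligands Efna2 (0.33) and Sema3f (0.32) and the receptor Ephb1 (0.64) rose. The counts depended on the set term: with none, 13 rose and 1 fell, and Slit2 was at −0.08, and with 2 surrogate variables in its place 12 rose and 4 fell. With globins as covariate 3 rose and 6 fell, and without the library labelled Nipbl_het replicate 2 5 rose and 4 fell. Neuronal marker levels are given above, and their part in these changes was not tested.

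Of 21 Wnt ligands and targets, 5 fell and 2 rose, 33.3% of those tested against 4.25% of all genes. Wnt5a, a ligand of non-canonical signalling, fell by 0.33 on the log2 scale, Wnt9b by 0.65 and Rspo3, which enhances Wnt signalling, by 0.32. Lef1, a nuclear effector of the pathway, fell from a median of 16.2 to 12.3 CPM (log2 change −0.33, SE 0.08). The inhibitor Dkk2 fell by 0.87. Wnt9a rose by 0.42. Dkk3, a relative of the Dickkopf inhibitors, was at 95.3, 128 and 161 CPM in Nipbl +/+ and at 131, 196 and 443 CPM in Nipbl +/- hearts (0.55, SE 0.10). The highest Dkk3 value belonged to the library labelled Nipbl_het replicate 2, and the change was 0.47 without it. The Notch (16 genes), BMP and TGF-beta (17), Fgf (18) and Hedgehog (11) lists gave 0 calls each. Without the library labelled Nipbl_het replicate 2, 2 Notch genes rose and 1 fell, 1 Fgf gene rose and 1 fell, and 1 Hedgehog gene rose. The Wnt calls depended on the sets: 2 genes fell without set 2 and 2 without set 5, and 3 with no set term, where Wnt5a and Wnt9b did not pass.

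Among genes of the extracellular matrix, 6 of 38 tested collagens fell and 2 rose, 21.1% called against 4.25% of all genes. Col1a1, of fibrillar collagen I, was at 57.3, 188 and 331 CPM in Nipbl +/+ and at 61.1, 135 and 221 CPM in Nipbl +/- hearts. The groups overlapped widely, and the log2 change with set in the fit was −0.64 (SE 0.14, adjusted p 0.00380). Its partner Col1a2 fell by 0.38, Col6a2 by 0.40, Col13a1 by 0.39, Col26a1 by 0.37 and the transmembrane collagen Col23a1 by 0.53. Col16a1 (0.35) and Col11a2 (0.37) rose. With no set term, 2 collagens fell. Of 17 tested Adamts proteases, which cut matrix proteoglycans and were added after the data were seen, 29.4% were called, against 4.25% of all genes. In this family 4 fell, among them Adamts5 (−0.68) and Adamts15 (−0.37), and Adamts12 rose (0.56). The cushion mesenchyme list, whose cells make matrix, summed to 707 to 1099 CPM in Nipbl +/+ and 695 to 1309 CPM in Nipbl +/- hearts and gave 0 calls.

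In the interferon response, 5 of 9 tested members (11 listed) rose and 0 fell, all but 1 of them at under 2 CPM: Oasl2 (log2 change 0.64, adjusted p 0.00786), Isg15 (1.01, adjusted p 0.0129), Rsad2 (1.27, adjusted p 0.0429), Bst2 (0.32, adjusted p 0.0433) and Irf7 (0.86, adjusted p 0.0434). The share called was 55.6% against 4.25% of all genes, and all 9 had a positive change, with a median of 0.32. Genes of so few reads can pass the filter on low counts through the Nipbl +/- libraries alone, so these numbers describe only the members that passed it. Isg15, a ubiquitin-like protein, had 3 to 23 reads per Nipbl +/+ library (median 9) and 8 to 36 (median 18.5) per Nipbl +/- library. Rsad2, viperin, had 0 to 13 (median 3) and 4 to 29 (median 10) reads. Bst2, tetherin, was the best covered of the 5, at 6.17, 8.66 and 11.3 CPM in Nipbl +/+ and 6.66, 9.61 and 14.9 CPM in Nipbl +/- hearts. The summed level of the list was 31.3 to 49.0 CPM in Nipbl +/+ and 36.2 to 65.9 CPM in Nipbl +/- hearts. None of the 9 passed without set 2 or without set 5. With no filter on low counts 2 passed, Oasl2 and Isg15, and with 10 counts in every library 1 passed, Bst2. Families added after the data were seen also held calls. Of 6 tested antigen processing genes (8 listed), the peptide transporter genes Tap1 (0.61) and Tap2 (0.85) rose. Of 14 tested histocompatibility genes (44 listed), H2-Q1 (1.08) and H2-Q2 (0.60) rose. The shares called were 33.3% and 14.3%, against 4.25% of all genes. The antigen processing median was 0.34, but 0.14 in Isl1 +/+ and 0.09 in Isl1 +/- hearts. The histocompatibility median was 0.39, and 0.24 once Nipbl_het replicate 2 was dropped. Histocompatibility genes summed to 313 CPM in that library and at most 190 CPM in other Nipbl +/- libraries. The macrophage list, a possible source of such transcripts, gave Tyrobp alone, but 8 of its 10 tested members had a positive change, with a median of 0.37. Without the library labelled Nipbl_het replicate 2 the median was 0.17, against 0.33 for the interferon list. In Isl1 +/+ and Isl1 +/- hearts the medians were 0.63 and −0.01 for the macrophage list and 0.24 and 0.37 for the interferon list. The summed macrophage level was 21.5 to 41.0 CPM (median 27.1) in Nipbl +/+ and 18.9 to 44.6 CPM (median 30.5) in Nipbl +/- hearts, and its part in the interferon values was not tested.

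The promoters of these genes are shown because 3 of the 5 that rose, Isg15, Rsad2 and Bst2, hold the core letters of an interferon-stimulated response element. The motif searched was GAAANNGAAA on both strands, overlaps included, in the 250 bases before the start of each gene in RefSeq (assembly GRCm38.p6). It occurred in 3.46% of all 27025 promoters and in 2.97% of those of tested genes. It was in 4.15% of promoters of genes that rose and 2.68% of those of genes that fell. Oasl2 and Irf7 do not hold these letters in this window. Capitals mark the motif, and each promoter is read 5′ to 3′ on the strand of its gene. In Isg15 the motif starts 78 to 66 bases before the start, in Bst2 130 and 124 bases before it and in Rsad2 120 bases before it, on the other strand.
Isg15, chr4:156200819-156201068, minus strand: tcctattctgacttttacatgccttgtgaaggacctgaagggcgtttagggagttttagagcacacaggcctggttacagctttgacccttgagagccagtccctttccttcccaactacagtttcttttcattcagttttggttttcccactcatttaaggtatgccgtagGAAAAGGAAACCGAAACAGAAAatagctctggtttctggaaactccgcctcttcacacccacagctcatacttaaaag
Rsad2, chr12:26456453-26456702, minus strand: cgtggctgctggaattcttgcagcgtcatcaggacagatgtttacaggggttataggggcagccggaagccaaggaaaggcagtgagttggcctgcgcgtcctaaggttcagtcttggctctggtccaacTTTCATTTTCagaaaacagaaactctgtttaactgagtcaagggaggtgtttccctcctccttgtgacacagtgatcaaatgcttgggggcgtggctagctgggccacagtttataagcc
Bst2, chr8:71537473-71537722, minus strand: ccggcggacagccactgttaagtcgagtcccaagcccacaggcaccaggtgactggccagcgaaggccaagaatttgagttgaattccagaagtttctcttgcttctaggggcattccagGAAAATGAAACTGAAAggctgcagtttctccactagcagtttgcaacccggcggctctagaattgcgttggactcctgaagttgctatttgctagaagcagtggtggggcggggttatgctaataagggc

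A group of neighbouring zinc-finger genes on chromosome 4 rose together. In the order of tested genes, called genes with at most 2 uncalled tested genes between them formed 14 runs of 3 or more in the same direction. Of these, 12 held 3 genes, such as Krt23, Krt14 and Krt17, and 2 held 8. One of the runs of 8 spans chr4:145585172-147812229 (GRCm38) and holds Gm13212, Zfp980, Zfp992, Zfp991, Zfp982, Zfp985, Zfp979 and Zfp984, all higher, among 10 tested genes. Zfp979 had the clearest change, at 6.31, 8.79 and 11.7 CPM in Nipbl +/+ and at 11.3, 13.9 and 18.3 CPM in Nipbl +/- hearts (log2 change 0.69, SE 0.08, adjusted p 3.27e-07). Within sets 2, 5 and 6 the difference for Zfp979 was 0.68, 0.67 and 0.72, and it was 12.2 CPM in the library labelled Nipbl_het replicate 2. Zfp982 rose by 0.38 and Zfp984 by 0.34. Zfp980 rose by 1.52, from a median of 5 to 13 reads per library, and Zfp985 by 1.08, from 7 to 15 reads. Zfp980 had 1 to 8 reads in the Nipbl +/+ libraries, so it passed the filter on low counts through the Nipbl +/- libraries alone, and it was also called with no filter. Zfp985 had 2 to 14 reads in the Nipbl +/+ libraries and may have passed the filter in the same way. It too was called with no filter. Of all 335 tested numbered zinc-finger genes, 9 rose (2.69%, against 2.84% of all genes tested) and 0 fell, and their median change was 0.03. The count of 9 was 4 without set 2, where Zfp984, Zfp985 and Zfp991 of the run did not pass, and 4 without set 5, where Zfp984, Zfp985 and Zfp992 did not. The remaining pair was Zfp608 (0.37) and Zfp185 (0.55).

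These genes encode Krüppel-type zinc-finger proteins of a repeated family, and reads could be split between near-identical copies, so single values are uncertain. The promoters of Zfp979 and Zfp980 are shown because these 2 genes, almost 2 megabases apart in the run, share most of that sequence. The 250 bases before their starts were 88.6% identical in a global alignment. Zfp985 was 82.4% identical to Zfp979 and 81.6% to Zfp980, Zfp984 67.4% to 69.0% to these 3, and Zfp982 48.3% or less to each of the other 4. The Zfp984 window (chr4:147809789-147810038, minus strand) lies inside the span of that gene used for the run, which ends at 147812229. Capitals mark bases that differ or have no partner in the alignment of the pair.
Zfp979, chr4:147642509-147642758, minus strand: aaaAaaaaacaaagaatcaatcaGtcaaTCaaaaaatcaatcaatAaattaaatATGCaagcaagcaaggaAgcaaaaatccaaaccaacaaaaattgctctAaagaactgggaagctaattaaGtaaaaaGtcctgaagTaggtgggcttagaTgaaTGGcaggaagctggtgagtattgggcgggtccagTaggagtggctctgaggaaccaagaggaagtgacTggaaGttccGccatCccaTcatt
Zfp980, chr4:145670447-145670696, plus strand: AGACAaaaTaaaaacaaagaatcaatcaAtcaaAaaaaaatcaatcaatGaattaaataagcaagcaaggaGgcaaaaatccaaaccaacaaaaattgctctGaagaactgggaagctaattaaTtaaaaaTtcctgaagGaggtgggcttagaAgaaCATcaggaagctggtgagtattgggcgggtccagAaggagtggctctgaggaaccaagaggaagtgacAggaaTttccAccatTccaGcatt

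The other long run was of beta protocadherins, which encode single-exon adhesion molecules whose promoters are chosen in each neuron with the help of CTCF and cohesin. It holds Pcdhb5, Pcdhb14, Pcdhb16, Pcdhb17, Pcdhb18, Pcdhb19, Pcdhb20 and Pcdhb22, all lower, among 9 tested genes of its span. All were at low levels. Pcdhb20, with the smallest adjusted p of the family (2.99e-06), had 11 to 57 reads per Nipbl +/+ library (median 24) and 3 to 19 (median 12) per Nipbl +/- library. Its CPM was 0.332, 0.812 and 1.25 against 0.0819, 0.318 and 0.495, and its log2 change −1.45 (SE 0.18). Pcdhb22 was at 0.967, 1.41 and 1.91 CPM against 0.164, 0.681 and 1.32 CPM (−1.10, SE 0.18), with 14 of 18 libraries below every Nipbl +/+ library. The 6 others had log2 changes from −1.01 to −1.50. Of 22 beta protocadherins in the table, 11 passed the filter on low counts, with a median of −1.06. Of these 11, 8 were called (72.7%, against 4.25% of all genes). A gene this low can pass the filter through 1 genotype alone, so these numbers describe only the members that passed. Of the gamma cluster next to it, 0 of 22 tested genes were called, with a median of 0.07, and of the alpha cluster 1 gene was tested and not called. The split of the family was made after the data were seen. Asking for 10 reads in every library removed all 8 from the test. Of the 8, 3 passed without set 2, and 5 passed with a replicate block, where Pcdhb5, Pcdhb14 and Pcdhb17 did not. The members are alike in sequence, so reads could be split between them.

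**Figure D3:**
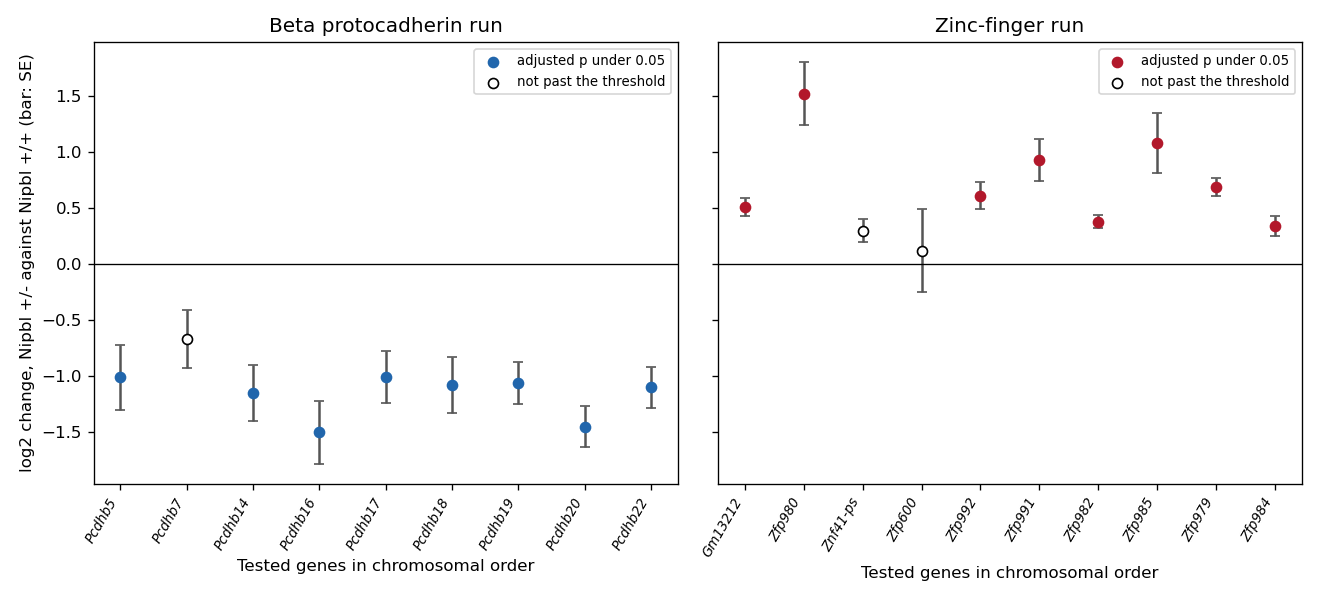
Log2 change (Nipbl +/- against Nipbl +/+) with its SE for the tested genes of the 2 runs of 8 called genes, in chromosomal order; open points did not pass the threshold. The beta protocadherins lie at −1.01 or below except Pcdhb7 (−0.67), and all 10 genes of the zinc-finger run are above 0.

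The called genes also differed in length. The median span from start to end was 43.2 kb for genes that fell, 18.9 kb for genes that rose and 23.1 kb for all tested genes with a RefSeq position. Of 4 groups of equal size by span, the longest had 2.47% of its genes lower and 2.02% higher, and the shortest 1.06% lower and 2.95% higher. The second shortest had 0.851% lower and 3.56% higher and the third 1.28% and 2.79%, so the shares did not change steadily with span. Expression level differs between these groups too, since the genes with a position that rose had a median log2 CPM of 2.29 and those that fell 4.04, and its part in the difference of length was not tested. The share of genes called on each chromosome ran from 2.03% on chromosome 17 to 6.34% on chromosome 7. Around Nipbl on chromosome 15, 1 of 43 tested genes within 5 megabases was called, Adamts12, and the median change of the 43 was −0.01.

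General functions of the cell gave few calls, although 11.1% of cholesterol synthesis genes and 12.5% of imprinted genes were called, against 4.25% of all genes. A single call made up 6.67% of the DNA replication list and of the p53 list. Of 79 ribosomal protein genes, 77 nuclear genes of oxidative phosphorylation, 15 mitotic genes, 22 genes of the low oxygen response and glycolysis and 13 immediate early genes, 0 passed. Leaving out the library labelled Nipbl_het replicate 2, 1 ribosomal protein gene and 1 gene of oxidative phosphorylation fell. All 22 low oxygen and glycolysis genes had a positive change, with a median of 0.24, and of 0.09 without the library labelled Nipbl_het replicate 2, when 1 of them passed. Their summed level was 45714 CPM in that library and at most 27049 CPM in the other Nipbl +/- and 21390 CPM in the Nipbl +/+ libraries. Of 15 DNA replication genes, Mcm7, of the replicative helicase, fell (log2 change −0.14), and 2 genes fell without the library labelled Nipbl_het replicate 2. Mcm7 did not pass with no filter on low counts, with a replicate block, with sets 2, 5 and 6 alone or without any of these 3 sets. Of 18 cholesterol synthesis genes, Hmgcs1 (−0.17) and Sqle (−0.17) fell, and 16 of the 18 changes were negative or 0. With no set term Hmgcs1 was at −0.06 and Sqle at −0.09, and neither passed, nor did they with 2 surrogate variables in its place. Of 15 p53 targets, Perp fell (−0.29), and without the library labelled Nipbl_het replicate 2 2 fell and 1 rose. Of 24 genes of the unfolded protein and amino acid stress response, Atf5 rose (0.38). The median of that list was 0.20 with all libraries and 0.01 without the library labelled Nipbl_het replicate 2. Of 24 imprinted genes, the neighbours Peg10 (0.37) and Sgce (0.26) rose. Cdkn1c, an inhibitor of cyclin-dependent kinases, fell from a median of 3738 to 2815 CPM (−0.36), with 1269 CPM in that library and a change of −0.32 without it. Of 40 tested histone genes (72 in the table), H2bu2 and H1f2 (0.32) rose, 5% of those tested, and H1f2 did not pass with sets 2, 5 and 6 alone, without set 5 or without set 6.

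Whether the difference holds in libraries that had no part in choosing the genes was examined by leaving out each library in turn. The genes were called again without it, and its value for each of them, Nipbl excepted, was placed against the midpoint between the means of the other Nipbl +/- and Nipbl +/+ libraries of its set. In all 17 Nipbl +/- libraries of sets 2, 5 and 6, more than 50% of the genes lay on the Nipbl +/- side (57.5% to 82.1%, median 73.3%). In the 13 Nipbl +/+ libraries the share was 13.5% to 41.6% (median 20.2%), so the groups did not overlap. The lowest Nipbl +/- share was that of the library labelled Nipbl_het replicate 2, although its Nipbl level was 72.4 CPM. When whole sets were left out, 158 of 160 genes called without set 2 had the same direction in set 2, 375 of 439 called without set 5 in set 5, and 347 of 380 called without set 6 in set 6. The sizes were smaller in the set left out: for genes that rose, medians were 0.44, 0.32 and 0.33 in sets 2, 5 and 6, against 0.56, 0.51 and 0.56 in the fits that chose them.

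**Figure D4:**
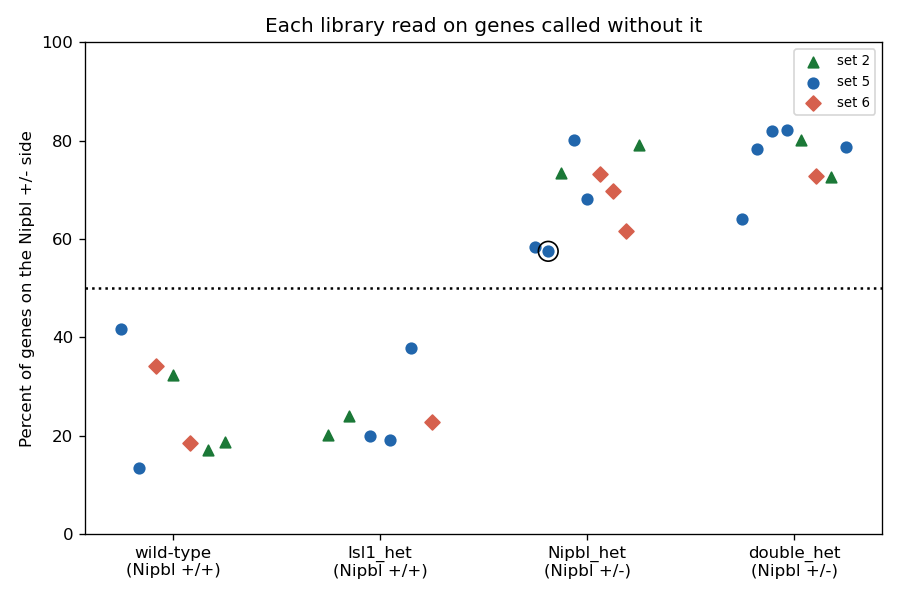
For each library of sets 2, 5 and 6, the percent of genes called without that library whose value in it lies on the Nipbl +/- side of the midpoint of its set; the dotted line is 50% and the circle marks the library labelled Nipbl_het replicate 2. Every Nipbl +/- library is above the line (57.5% or more) and every Nipbl +/+ library below it (41.6% or less).

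The effect was also fitted apart in the 2 Isl1 backgrounds, which share no libraries. Among Isl1 +/+ hearts (Nipbl_het against wild-type) 21 of 14592 genes passed (0.144%), and 88 of 14646 without the library labelled Nipbl_het replicate 2 (0.601%). Among Isl1 +/- hearts (double_het against Isl1_het) 268 of 14539 passed (1.84%). Of the 268 genes, 267 were tested in the other background and 255 had the same direction there, with medians of 0.42 against 0.59 for those that rose and −0.35 against −0.45 for those that fell. In the opposite reading, without the library labelled Nipbl_het replicate 2, all 87 genes that could be read had the same direction. With all libraries both fits called 16 genes. Without that library both called 49 genes, which is 18.3% of the 268 and 55.7% of the 88. They include Nipbl, Trim72, Klf14, Slitrk5, Lrrc4b, Barx2, Wt1, Zfp979, Pcdhb20, Pcdhb22, Mycn, Dkk3 and Dcc.

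A difference of the Nipbl effect between the backgrounds was tested as an interaction over all 37 libraries. By edgeR, 0 of 15046 genes passed, the lowest adjusted p-value was 0.999, and 411 genes were under 0.05 before adjustment. Without the library labelled Nipbl_het replicate 2 the numbers were 0 and 485. For Barx2 the change was 1.18 in Isl1 +/+ and 2.00 in Isl1 +/- hearts, an interaction of 0.69 (SE 0.27). For Slitrk5 it was −0.93 and −1.03, an interaction of −0.15 (SE 0.16), and for Trim72 0.59 and 0.70, an interaction of 0.12 (SE 0.12). None of these 3 interactions passed, which does not show that the effects are equal.

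**Figure D5:**
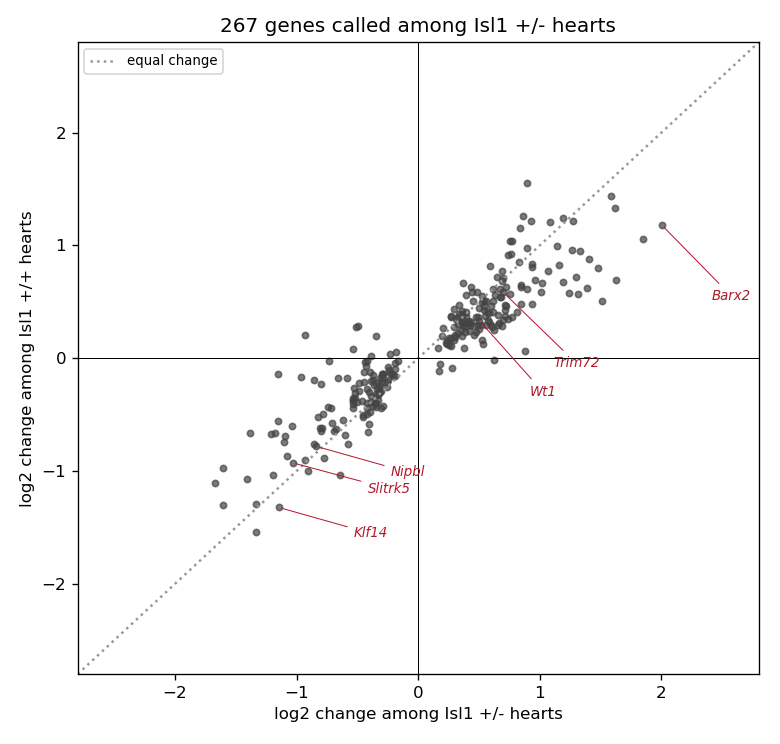
Log2 change among Isl1 +/- hearts (horizontal) and among Isl1 +/+ hearts (vertical) for the 267 genes called in the former and tested in both; the dotted line is equal change. Points lie mainly in the lower left and upper right (255 of 267), with a median of 0.59 on the horizontal and 0.42 on the vertical axis for genes that rose.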

How the data were processed

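Hearts of E10.5 mouse embryos were profiled by bulk paired-end RNA sequencing (Monarch RNA extraction and NEBNext Ultra II RNA libraries, per the labels' protocols). The submitters' processing notes name STAR, featureCounts and GRCm38 (mm10), without versions or strand setting. The authors deposited raw counts per gene symbol (25239 genes, 4273 of them at 0 in every library), not normalized. Overlapping and near-identical genes are therefore uncertain. Genotype came from the titles and set number from the description, and 0 columns were left unused.

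The filter on low counts was filterByExpr with genotype as group (count of 10, total of 15), and scaling was by TMM. Genes were tested with edgeR 4.0.16 (quasi-likelihood, R 4.3.3, limma 3.58.1), with Nipbl genotype, Isl1 genotype and set as terms. The library of set 7 is fitted exactly by its set term. Tests were two-sided with Benjamini-Hochberg adjustment over all genes and a threshold of 0.05. SEs came from the F statistic, and log2 CPM used a prior count of 2. No 2 libraries of a genotype were alike within sampling noise (153 pairs, smallest chi-square per degree of freedom 7.38). Intervals of read counts would cover counting error only, since reads carry no molecular identifiers.

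Genes named were Nipbl and, among called genes with mean log2 CPM of at least 1, one direction in sets 2, 5 and 6 and in both backgrounds, not Xist, Tsix or Y-linked and not named by a clone number, the 10 with smallest p and 5 with largest change each way, plus called members of the gene lists. The members, lists and tests were chosen with earlier results of these data known, and 10 families were added after the values were seen. Some list members are not reported here. Positions and promoters are from RefSeq (GRCm38.p6), matched by symbol for 15036 of 15046 tested genes, and were aligned with Biopython 1.88. Alternatives used DESeq2 1.42.0 and sva 3.50.0. Figures and tables used Python 3.11.15, pandas 2.3.3 and matplotlib 3.10.9. Replicate numbers of the titles were not used to pair libraries in the main fit.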

Additional observations from a re-analysis of the deposited data

Results flagged for a closer look

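The 27 genes named by rule were examined within each genotype for a library far from the nearest other one, on the log2 scale, in 108 combinations of gene and genotype. In 9 of them 1 library stood apart by Dixon's criterion, which chance alone does in about 1 in 20 groups. The library labelled Nipbl_het replicate 2 accounted for 4. It was high in Lgals3, at 33.0 CPM against 2.49 CPM in the nearest Nipbl_het library. It was low in Sox3 (3.06 against 4.56 CPM), in Trib2 (18.6 against 41.1 CPM) and in Cacng6 (4.21 against 7.83 CPM). The same library had the high stress response level given above. The other 5 values were all low. Lpar3 was at 40.3 CPM in wild-type replicate 7 (nearest 48.5) and at 28.2 CPM in double_het replicate 8 (nearest 36.1). Stk32b was at 1.89 CPM in wild-type replicate 10 (nearest 2.39) and at 1.68 CPM in Isl1_het replicate 4 (nearest 2.34). Chit1 was at 1.37 CPM in wild-type replicate 2 (nearest 2.78). The cause of these values was not tested.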

How the results depend on the processing

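Of the 640 genes, all that could be tested kept their direction under each of 13 other settings and without each of the 37 libraries in turn. The genes were chosen in these same libraries, so this agreement was largely fixed in advance. The count of 640 became 1084 with no set term (775 higher), 1712 with 2 surrogate variables in place of the set term, 160 without set 2, 381 without set 6 and 1057 without the library labelled Nipbl_het replicate 2. Leaving out each library in turn gave 466 (without Isl1_het replicate 6) to 1057, and the second highest was 670. DESeq2 gave 840 genes, DESeq2 size factors 619, no filter on low counts 551, 10 counts in every library 521, Xist or globins as covariate 646 and 668, sets 2, 5 and 6 alone 528 and no set 5 441. The share that was higher, 66.7% with the settings of the report, was 56.2% without set 2. With a replicate block added the count was 588, of which 442 were among the 640. Over 51 pairs of libraries with the same number the median correlation of deviations was 0.0323 (−0.357 to 0.437). Of these pairs, 14 were over 0.1. A median near 0 cannot settle whether some libraries of the same number were handled together. In Isl1 +/+ hearts the count of 21 became 88 without the library labelled Nipbl_het replicate 2, 66 with no set term and 10 with a replicate block in place of the set term. In Isl1 +/- hearts the count of 268 became 249 and 102 with the last 2 changes. Of the 27 genes named by rule, at least 23 were called in each of the 13 settings, and the calls lost were of Lgals3, Grin2c, Lum, Myh11 and Tnni2. Without single libraries at least 26 were called, and Lgals3 alone was lost, in 4 cases. Of the 102 called genes that were named by rule or belong to the planned gene lists, 54 did not pass without set 2, 42 without set 5, 29 without set 6 and 30 with a replicate block. These counts leave out called genes that belong only to the families added after the data were seen. The calls lost include, beside those given in the report, Cdkn1c, Peg10, Perp and Ephb1 (without set 2 or 5, or with the block), Sgce, Lef1 and Efna2 (without set 2 or 6), Wnt9a (without set 5 or 6), Dkk2 (without set 5, or with the block), Rspo3 (without set 5), Rarres2 (without set 2) and Sema3f (without any of the 3 sets). The cause of these shifts was not tested. Depth limits genes of a few reads per library, such as those of the interferon response, beta protocadherins and Zfp980.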

Other observations

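Several of the shorter runs of neighbouring genes, named here because they were runs and so after their values were seen, hold genes of unlike function. Spire2, an actin nucleator, rose from a median of 10.6 to 14.2 CPM (log2 change 0.43, adjusted p 0.00211 by edgeR) beside the tubulin gene Tubb3 and Dbndd1 (0.59), and 14 of 18 Nipbl +/- libraries lay above every Nipbl +/+ library for Spire2. Rarres1 lies in a run with Lxn (0.23), an inhibitor of carboxypeptidases, and Schip1 (0.48). The neighbours Arap1 (0.26), Atg16l2 (0.35) and Pde2a (0.66) rose as well. A single short run fell: Kcnd2, a potassium channel gene (−0.57), Cped1 (−0.41) and Ptprz1, a receptor phosphatase (−0.92). With 4.25% of genes called, some neighbours are called together by their number alone, and how many was not tested.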
